A study of Mus musculus with 2 samples.

Results

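Snord83b is a box C/D small nucleolar RNA (snoRNA), and its short fragments were followed here in mouse embryonic stem cells. Most mouse box C/D snoRNAs sit in the introns of host genes, are released from the excised intron by exonucleases, and guide the ribose methylation of other RNAs. Box C near the 5′ end and box D near the 3′ end are brought together by a short stem of the RNA ends, and this structure binds the proteins, the methyltransferase fibrillarin among them, that protect the ends of the mature RNA. Fragments of snoRNAs are common in small RNA libraries, and some have been described as processed products. The members were all sequences of 15 to 17 nt identical over their full length to the sense strand of the 94 nt Snord83b transcript. There were 7 such sequences, and Snord83b was 1 gene of 183 snoRNA and scaRNA (Cajal body RNA) genes with reads. The gene was selected on its read counts and read positions in these same libraries, so its level and the form of its reads are given as a description, without a test.

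The treated cells were J1 cells, a line of strain 129S4/SvJae, kept for 24 h with 3 µM SB431542, a kinase inhibitor that blocks signalling by activin, Nodal and TGF-beta through their type I receptors. The other library came from J1 cells kept for 24 h with DMSO, its solvent. Both cultures, on gelatin-coated plates, received Knockout Serum Replacement and leukaemia inhibitory factor (LIF, 1000 U/mL). Each group had 1 library of total RNA, so the spread between libraries is not known, no test was made, and every interval given is one of counting error alone. All sequences have 3 to 17 nt, and reads of 15 to 17 nt numbered 517535 in the SB431542 library (mean GC content 64.2%) and 990296 in the DMSO library (60.7%). Longer fragments and full-length snoRNAs are not analysed here. As a check of the cell type, the hairpin of miR-293, a miRNA typical of pluripotent mouse cells, supplied the most miRNA reads, 10364 with SB431542 and 38937 with DMSO.

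The transcript is printed whole because all reads fell on its first bases. In the GRCm38 genome it is annotated (GENCODE M21, ENSMUSG00000077734) at chr15:80078498-80078591 on the minus strand, within Rpl3, which encodes a protein of the large ribosomal subunit. It lies in the intron between exons 7 and 8 of the 10 exons of the Rpl3 transcript used, and none of the 7 annotated Rpl3 transcripts contains it. Capitals mark box C, searched as TGATGA, and box D, searched as CTGA, both on the sense strand only.
Snord83b: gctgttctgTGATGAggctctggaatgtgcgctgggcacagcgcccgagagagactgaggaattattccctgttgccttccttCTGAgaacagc

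Box C occupied bases 10 to 15 and box D bases 84 to 87, counted from 1 at the 5′ end of the GENCODE transcript. Another CTGA stood at bases 55 to 58. The first 8 bases are the exact reverse complement of the last 8 (bases 87 to 94), which overlap the final base of box D. TGATGA within the first 25 bases was found in 71.1% of the 97 annotated snoRNA genes with Snord symbols, and CTGA within the last 25 bases in 99.0%. RefSeq (GRCm38.p6) places a shorter Snord83b, of 77 nt, at 80078503 to 80078579, so its first base is base 13 of the GENCODE transcript, inside box C. The reads described next begin upstream of that RefSeq start.

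The 5 most abundant fragments, shown because they hold nearly all of the reads, differed by single bases at either end. Capitals mark box C, which each of them contains whole.
Fragment 1, bases 4 to 19: gttctgTGATGAggct
Fragment 2, bases 4 to 20: gttctgTGATGAggctc
Fragment 3, bases 4 to 18: gttctgTGATGAggc
Fragment 4, bases 3 to 19: tgttctgTGATGAggct
Fragment 5, bases 5 to 19: ttctgTGATGAggct

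A single 16 nt sequence, fragment 1, made up most of the Snord83b reads in both libraries. It had 963 reads with SB431542 (84.9% of Snord83b reads, 95% Clopper-Pearson interval 82.7 to 87.0) and 2348 with DMSO (86.0%, 84.6 to 87.3). Among all sequences of 15 to 17 nt it ranked 79 in the SB431542 library and 60 in the DMSO library. It was found in no other annotated transcript, on either strand. Its genomic place, chr15:80078573-80078588, begins 6 bases before box C and ends 4 bases after it.

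The other fragments had far fewer reads. Fragment 2, with 1 more base at the 3′ end, had 116 reads with SB431542 (10.2%, 8.53 to 12.1) and 239 with DMSO (8.75%, 7.72 to 9.88). Fragment 4, which starts 1 base earlier, had 31 reads with SB431542 (2.73%, 1.86 to 3.86) and 45 with DMSO (1.65%, 1.20 to 2.20). Fragment 3, 1 base shorter at the 3′ end, had 15 reads with SB431542 (1.32%, 0.742 to 2.17) and 75 with DMSO (2.75%, 2.17 to 3.43). Its sequence also occurs in 5 other annotated genes, so its reads cannot all be assigned to Snord83b. For each of fragments 1 to 4 the intervals of the shares overlapped between the libraries, but those of fragment 3 only at 2.17%. Relative to all reads in the length range, fragment 3 was lower with SB431542 (log2 -1.39, counting interval -2.29 to -0.57). This interval lay below that of all Snord83b reads together (-0.43 to -0.23). On the same scale fragment 2 stood at -0.11 (-0.44 to 0.22) and fragment 4 at 0.40 (-0.31 to 1.09). Why fragment 3 was lower was not tested. Fragment 5 had 8 reads with SB431542 and 20 with DMSO. The remaining sequences, at bases 5 to 20 and 5 to 21, had 0 and 1 reads with SB431542 and 3 and 0 with DMSO.

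Along the snoRNA the reads formed 1 block at the 5′ end. Base 4 was the first base of 96.5% of the reads with SB431542 (95.2 to 97.5) and of 97.5% with DMSO (96.9 to 98.1). Base 19 was the last base of 88.4% with SB431542 (86.3 to 90.2) and of 88.4% with DMSO (87.1 to 89.6). All reads of both libraries started at base 3, 4 or 5, and all contained box C whole. The cover of box C follows from these starts, because even the shortest reads counted reach past it. The last base covered was base 21 with SB431542 and base 20 with DMSO. No read reached the 73 bases after base 21, which hold box D, the inner CTGA and the 3′ strand of the terminal stem. With 3 reads taken as the limit of a count of 0, any fragment there had at most 0.265% of the Snord83b reads with SB431542 and 0.110% with DMSO. The upper ends of the Clopper-Pearson intervals used for the shares are 0.325% and 0.135%. The first base of the reads lies within the terminal stem, so that bases 4 to 8 of its 5′ strand are in the fragment. No read was antisense to Snord83b in either library.

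**Figure D1:**
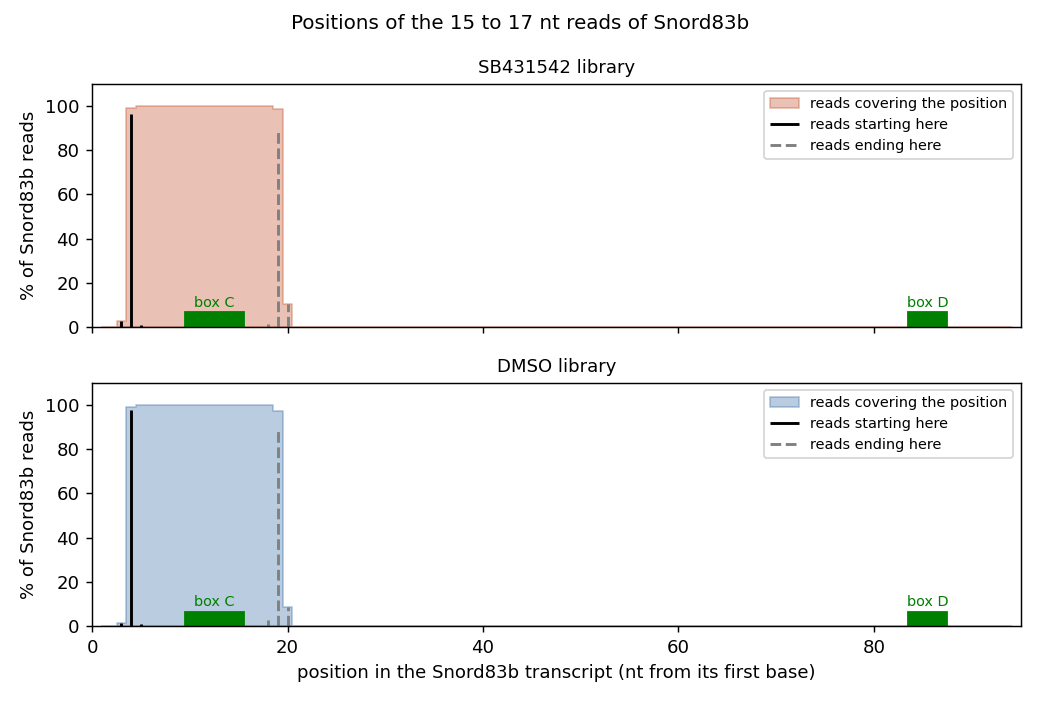
Share of the 15 to 17 nt Snord83b reads (y axis, percent) that cover each base (shaded), start there (solid line) or end there (dashed line), by position in nt from the first base of the transcript (x axis), with SB431542 (above, 1134 reads) and DMSO (below, 2730 reads). Both libraries show the same block from base 4 to base 19 over box C, and no read near box D.

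Among lengths of 15 to 17 nt, the commonest of Snord83b was 16 nt in both libraries. No sequence was longer than 17 nt, so 17 nt is an upper cut and longer Snord83b reads could not be seen. Reads of 16 nt were 84.9% of the Snord83b reads with SB431542 (82.7 to 87.0) and 86.1% with DMSO (84.8 to 87.4). Over all reads of 15 to 17 nt, 16 nt reads were 30.4% with SB431542 and 30.5% with DMSO, and the commonest length was 17 nt, at 49.1% with SB431542 and 49.5% with DMSO. Pooled over the other snoRNA genes the commonest length was also 17 nt, with 16 nt reads at 30.9% with SB431542 and 26.3% with DMSO, and 17 nt reads at 50.0% with SB431542 and 49.9% with DMSO. Snord83b reads of 17 nt were 13.1% with SB431542 and 10.4% with DMSO. At the lower limit, 23 reads with SB431542 and 95 with DMSO had 15 nt, while 14 nt sequences within the transcript, just outside the rule, had 1 read with SB431542 and 3 with DMSO. Single genes differed from this pooled order: of the 11 genes with reads across box C described further on, the leading sequence had 16 nt in 3 (Snord83b, Snord55 and Snord89), 17 nt in 6 and 15 nt in 2. The 2 genes at 15 nt, AF357428 and Gm22981, share nearly all of their reads, as do Snord14c and Snord14d at 17 nt, so these counts are not of independent genes. The 14 nt sequence that starts at base 4 had 0 reads in both libraries.

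**Figure D2:**
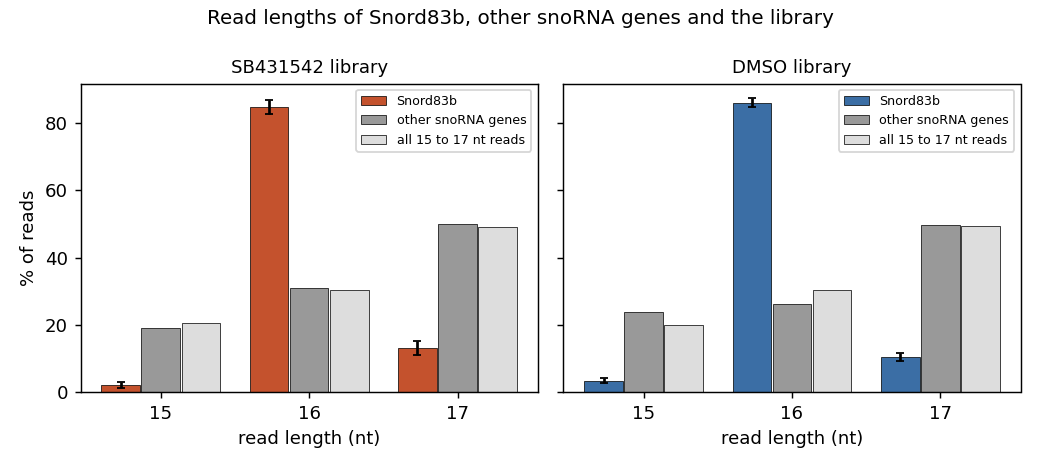
Share of reads (y axis, percent) of 15, 16 and 17 nt (x axis) for Snord83b (coloured, with 95% Clopper-Pearson intervals of counting error), the other snoRNA genes (dark grey) and all 15 to 17 nt reads (light grey), with SB431542 (left) and DMSO (right). Among these lengths Snord83b reads are commonest at 16 nt in both libraries, and the other reads at 17 nt, the longest length available.

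The 17 nt reads show what follows the 16 nt sequence. Of the reads made of fragment 1 and 1 more base, 116 with SB431542 and 239 with DMSO carried the base that the transcript has there. Another base was found in 0 reads with SB431542 and in 1 with DMSO. Sequences that differ from Snord83b by 1 substitution and match no annotated transcript had 3 reads with SB431542 and 9 with DMSO, each a different sequence with 1 read. They started within the first 10 bases of the transcript, as the exact reads did.

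Snord83b held more reads than all other snoRNA and scaRNA genes together. With SB431542 it had 1134 reads of the 1878 assigned to these genes, 60.4% (58.1 to 62.6). With DMSO it had 2730 of 4693, 58.2% (56.7 to 59.6). After equal division of shared reads, the next gene was Snord118, which encodes the U8 RNA needed for ribosomal RNA processing. It had 81 reads with SB431542 and 212 with DMSO, 14-fold fewer than Snord83b with SB431542 and 12.9-fold fewer with DMSO. Counted undivided over both libraries, the U3 gene Rnu3b1 matched 672 reads and Snord14c 472, against 294 for Snord118 and 3864 for Snord83b. Reads were found for 123 snoRNA and scaRNA genes with SB431542 and 153 with DMSO. The median of the genes other than Snord83b was 1.33 reads with SB431542 and 2 with DMSO. Against miRNA hairpins, 4 had more reads than Snord83b in the SB431542 library and 4 in the DMSO library. Reads without molecular identifiers may be copies of fewer molecules, so these are levels of reads.

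Scaled to 1000000 reads of 15 to 17 nt (RPM), Snord83b stood at 2191 with SB431542 (exact Poisson interval 2065 to 2323) and at 2757 with DMSO (2654 to 2862). On the log2 scale the ratio of SB431542 to DMSO was -0.33 (exact conditional binomial interval -0.43 to -0.23), a 1.26-fold lower level, while against the reads of the other snoRNA genes it was 0.13 (0.03 to 0.23), of the opposite sign. The other snoRNA genes together stood at 1438 RPM with SB431542 and 1982 with DMSO, a log2 ratio of -0.46 (-0.59 to -0.34). Without Snord14c and Snord14d, an alternative chosen after the data were seen, Snord83b made up 63.2% of snoRNA reads with SB431542 (60.9 to 65.4) and 63.4% with DMSO (62.0 to 64.9), and its log2 ratio against the remaining genes was -0.014 (-0.11 to 0.09). Those genes were left out because they had the lowest ratios, so a value nearer 0 follows from that choice. Fragment 1, with a GC content of 50.0%, had a log2 ratio in RPM of -0.35 (-0.46 to -0.24), while 1153 other sequences of 50 to 60% GC with at least 20 reads had a median of -0.24. After a correction for GC content the ratio of Snord83b was -0.080. With scaling factors over snoRNA genes it was -0.10 (edgeR TMM) and -0.27 (DESeq2). The treatment and the preparation of each library cannot be told apart.

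Among the 15 snoRNA genes with at least 50 reads over both libraries, all had a log2 ratio below 0 in RPM, with a median of -0.35, so Snord83b lay near the middle. At least 2-fold lower with SB431542 were 2 of the 15 (13.3%), Snord14c and Snord14d, and 0 were at least 2-fold higher (0%). Snord14c and Snord14d, box C/D snoRNAs that share nearly all of their reads, stood at -1.27 (-1.80 to -0.80) and -1.26 (-1.80 to -0.79). Snord118 stood at -0.45 (-0.84 to -0.08), and Snord21, another box C/D snoRNA, at -0.26 (-0.71 to 0.16). The genes nearest to Snord83b in this ratio were Rnu3b1, Rnu3b2 and Rnu3b3, copies of the U3 snoRNA of ribosomal RNA processing, each at -0.35 (-1.01 to 0.25) over the same 2 libraries. They share their reads with each other and with Rnu3b4, so they are not independent values, and the median of the 15 genes is their value. Gm24949 and Gm24826, with the same commonest first and last bases (76 and 92), stood at -0.29 each. Rnu3a, the fifth most abundant of the other genes by divided reads, stood at -0.54 (-1.20 to 0.06). Rnu3b1 matched 672 reads undivided, but its interval treats its divided reads (31.7 with SB431542, 78.1 with DMSO) as counts. That interval is therefore wider than the matched reads would give, as are those of Rnu3b2, Rnu3b3, Rnu3a, Snord14c and Snord14d. By class, the other genes with Snord symbols summed to 587 RPM with SB431542 and 939 with DMSO (log2 -0.68, -0.87 to -0.49). This sum includes Snord14c and Snord14d, at 80.7 RPM each with SB431542 and at 196 and 195 with DMSO, so it is not typical of single genes. The 110 genes with other symbols, the U3 genes among them, summed to 729 RPM with SB431542 and 912 with DMSO (-0.32, -0.50 to -0.15). Box H/ACA genes, which guide pseudouridylation, summed to 110 with SB431542 and 117 RPM with DMSO (-0.09, -0.57 to 0.38), and scaRNA genes had 6 reads with SB431542 and 14 with DMSO.

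**Figure D3:**
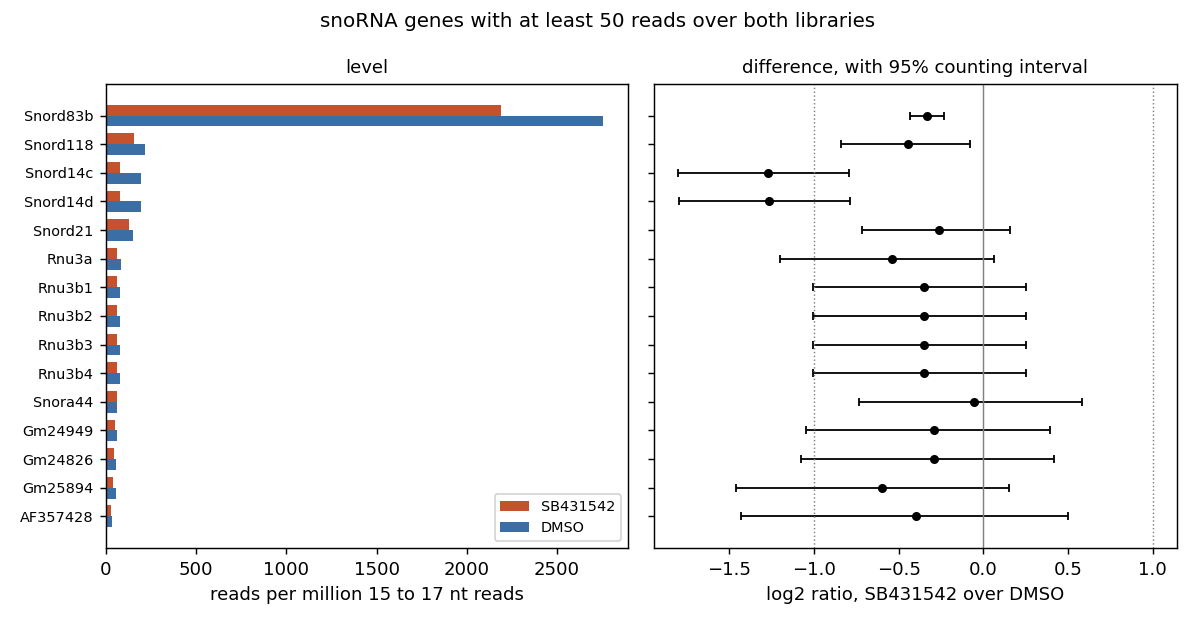
Level in RPM (left, bars, SB431542 above DMSO for each gene) and log2 ratio of SB431542 to DMSO on the same scale (right, points with 95% counting intervals; dotted lines at 2-fold) for the 15 snoRNA genes with at least 50 reads. Snord83b has the highest level by far and a ratio of -0.33, which is 0.13 on the scale of the other snoRNA reads. Levels, ratios and intervals use reads divided among the genes that share them.

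The other small RNA genes annotated within Rpl3 on the same strand had few or no reads. Gm22077, a snoRNA gene (80080251 to 80080343), had 0 reads in both libraries, which allows up to 5.80 RPM with SB431542 and 3.03 with DMSO. Snord43, annotated there as a miRNA gene (80082847 to 80082954), also had 0 reads in both. Gm24204, annotated as a small nuclear RNA gene, matched 11 reads with SB431542 and 8 with DMSO, all in sequences that other genes also hold. The Rpl3 transcripts themselves matched 53 reads with SB431542 and 30 with DMSO, but only 1 of these, with DMSO, had a sequence found in no other gene.

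The position over box C was shared with other snoRNAs. Of 13 snoRNA genes with TGATGA in the first 25 bases and at least 10 reads, 11, Snord83b included, had over 90% of their reads across box C. Some of the 11 share their reads (Snord14c with Snord14d, AF357428 with Gm22981) and are not independent. In these 11 genes the commonest first base lay 5 or 6 bases before box C and the commonest last base 3 to 6 bases after it. Under the length limits, a read with such a start must hold box C whole and end within that range. The cover of box C and the range of the last base are therefore not findings separate from the start. The leading sequences of Snord14c, Snord55 and Snord89 are given for comparison with fragment 1, again with box C in capitals.
Snord14c: tcgctgTGATGAtggat
Snord55: gcggaTGATGAcacct
Snord89: gaggagTGATGAcata

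The Snord89 sequence covers bases 4 to 19 of its transcript, as fragment 1 does of Snord83b, and lies at chr1:39548836-39548851 on the minus strand. It had 5 reads with SB431542 and 12 with DMSO. The Snord55 sequence, also of 16 nt, lies at chr4:117155832-117155847 on the minus strand and had 7 reads with SB431542 and 22 with DMSO. The Snord14c sequence, of 17 nt, lies at chr9:40803583-40803599 on the plus strand and had 41 reads with SB431542 and 165 with DMSO, in a sequence that 3 annotated genes hold. Snord83b had 3864 reads over both libraries, and the other 10 genes together 721, each read counted once. Of the 2 genes outside this pattern, all 215 reads of Snord21 and 11 of the 12 of Snord23 ended past box D, near the 3′ end. Their commonest first and last bases were 79 and 93 in Snord21, with box D from base 84, and 95 and 109 in Snord23, with box D from base 101.

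The ends of the Snord83b reads were then set beside those of the other genes. The commonest first base held 97.2% of its reads over both libraries, and a median of 58.1% in the 14 other snoRNA genes with at least 50 reads (21.5 to 98.9%), of which 1, Snora44 (98.9%), was higher. Nearest to it in this measure were Snord14d (96.2%), Snord14c (96.0%) and Snora44. The commonest last base held 88.4% for Snord83b and a median of 44.5% in the other genes (at most 76.7%), none of them higher. Below 50 reads, Snord55 (43 reads) had 88.4% and Snord23 (12 reads) 91.7% at the commonest last base, so a share this high was not particular to Snord83b. The commonest sequence held 85.7% for Snord83b and a median of 41.9% in the others (at most 56.0%). Snord14c and Snord14d thus shared the uniform start but had 44.5% and 44.6% of their reads at the commonest last base. These medians count some reads repeatedly, as Snord14c and Snord14d share nearly all of their reads. Rnu3b1 to Rnu3b4, Gm24949 and Gm24826 all have 76 and 92 as commonest first and last bases, with reads divided among several genes. The 14 values are therefore not independent. In 45 miRNA hairpins (genes with Mir symbols) with at least 50 reads, the medians were 94.6% for the first base, 54.9% for the last base and 50.9% for the commonest sequence. Reads of at most 17 nt stop short of the mature 3′ end of a miRNA, so the last base is not an end of the mature miRNA. Of these hairpins 20 had a higher share at the first base than Snord83b, 3 at the last base and 4 for the commonest sequence. Some hairpins share their reads and are not independent values. Mir27a and Mir27b, both among the 3, share nearly all of theirs, as do Mir103-1, Mir103-2 and Mir107, all among the 20. Snord83b thus lay near the hairpins' median at the first base and near their upper end in the other measures. These values describe where the reads begin and end, and how the fragment arose was not tested.

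**Figure D4:**
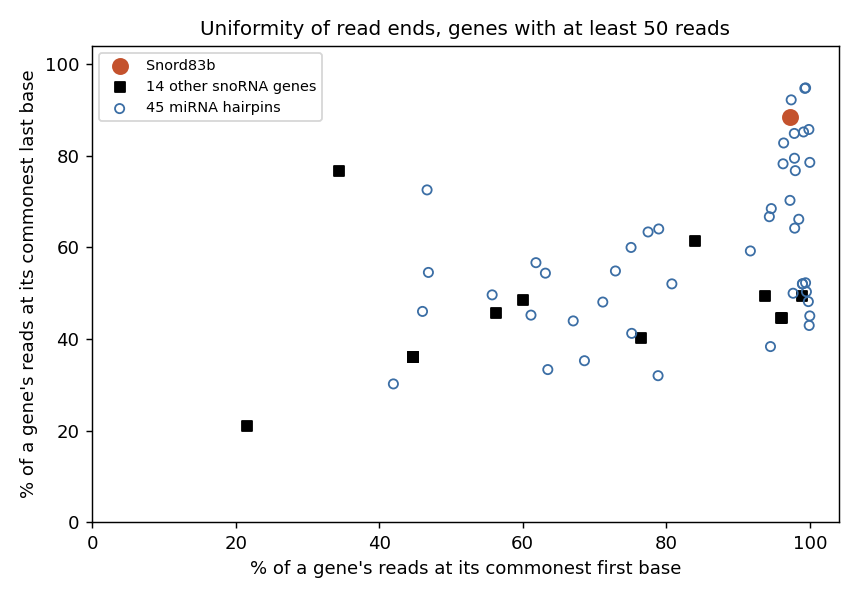
Share of a gene's reads over both libraries at its commonest first base (x axis, percent) and at its commonest last base (y axis, percent) for Snord83b (large point), 14 other snoRNA genes (squares) and 45 miRNA hairpins (open circles) with at least 50 reads. Snord83b, at 97.2% and 88.4%, lies above the 14 other snoRNA genes plotted in the share at the last base, where 3 hairpins are higher, while 20 hairpins are higher at the first base.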

How the data were processed

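Total RNA was extracted with TRIzol and libraries were made with an Illumina TruSeq RNA kit, per the labels' protocols. How small RNAs were selected, adapters trimmed and reads filtered is not given in the sources used here. Each deposited file lists distinct sequences with their length and their raw, unscaled read count. The sequences have 3 to 17 nt, so their totals are not the depth of the libraries. The submitters' processing notes name build mm9, which was not used for coordinates.

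Sequences of 15 to 17 nt were matched exactly and over their full length to the GENCODE M21 transcripts (GRCm38), sense and antisense. Every sense match to Snord83b was a member. For the snoRNA total, sequences found in a further small RNA class, or in over 5 genes of other kinds, were left out (32 reads with SB431542, 81 with DMSO, no Snord83b read among them), and reads found in several snoRNA genes were divided equally among them. Gene ratios used a pseudocount of 0.5 read. 3 reads are the limit that a count of 0 allows, 5.80 RPM with SB431542 and 3.03 with DMSO. Intervals are 95% and cover counting error only, as reads without molecular identifiers are not independent molecules. For genes with shared reads the intervals of the ratios treat the divided reads as counts. With 1 library a group no test was made. The GC correction divided SB431542 counts by the median ratio of other sequences with at least 20 reads in the same 10% wide bin. The named genes were the snoRNAs of the host gene, the 5 most abundant others, and the 3 nearest in ratio and in start share; Snord55, Snord89, Snord23, Snord43, Gm24204 and the genes of the box C comparison were named after their values were seen. The members, lists and rules were chosen with earlier results of these data known. The matching and the ratios were tested on simulated data. Scaling factors came from edgeR 4.0.16 and DESeq2 1.42.0 in R 4.3.3. All else was computed in Python 3.11.15 (scipy 1.17.1, pandas 2.3.3, numpy 2.4.6, figures with matplotlib 3.10.9).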

Additional observations from a re-analysis of the deposited data

How the results depend on the processing

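The log2 ratio of Snord83b, -0.33 in RPM, was below 0 under 11 of 14 other settings and ranged from -0.39 to 0.13. It was above 0 against the other snoRNA reads (0.13), at 17 nt alone (0.0068) and for distinct sequences after thinning of the DMSO library (0.11, from 6 sequences in each library). It was closer to 0 with edgeR TMM factors (-0.10), without the most abundant sequence (-0.22), after the GC correction (-0.080) and against the other snoRNA reads without Snord14c and Snord14d (-0.014). TMM factors and the scale of the other snoRNA reads move every ratio by 0.23 and 0.46. The share of snoRNA reads was 78.9% with SB431542 and 74.6% with DMSO among Snord genes, 63.1% and 60.9% without Snord118, 63.2% and 63.4% without Snord14c and Snord14d, 57.4% and 55.0% from 14 nt, 64.9% and 63.8% from 16 nt, 28.5% and 22.5% at 17 nt, and 2.52% and 2.26% of distinct sequences. The share at the commonest start was 78.4% with SB431542 and 84.2% with DMSO at 17 nt, where the share at the commonest end was the same, 50% among distinct sequences in each library at either end, and 100% within 1 base. The end share within 1 base was 99.9% with SB431542 and 100% with DMSO. That value was nearly fixed in advance, because a 15 to 17 nt read from base 4 must end at base 18, 19 or 20. In the DMSO library the end share was 90.9% without the sequence shared with other genes, and from 16 nt it was 90.8%, with 98.2% at the start. With no minimum of reads 46 of 183 snoRNA genes were at least 2-fold higher with SB431542 and 26 lower. A minimum of 20 reads gave 0 and 4 of 27 genes, against 0 and 2 of 15 at 50 reads. Without a minimum the pseudocount weighs on the direction. A gene with 1 SB431542 read and 0 DMSO reads had a log2 ratio of 2.52, and the reverse gave -0.65. The other settings kept 0 and 2, of 5 genes with a minimum of 200 reads and of 15 otherwise. The cause was not tested. No paired analysis was possible because each group has 1 library.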
